A study of Mus musculus with 3 samples.

Results

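Foxp4 and H3K27ac peaks assigned to microRNA genes were examined in mouse beige adipocytes, heat-producing fat cells that form inside white fat depots. Members were all peaks on chromosomes 1 to 19 whose deposited gene name began with Mir and a digit or with Mirlet, so that host transcripts of microRNAs such as Mir22hg were included. This gave 589 of 16856 Foxp4 peaks (3.49%, exact Clopper-Pearson 95% interval 3.22 to 3.78), assigned to 323 microRNA genes. It gave 521 of 17450 H3K27ac peaks (2.99%, interval 2.74 to 3.25), assigned to 250 microRNA genes. Together the lists named 433 microRNA genes, 140 of them in both. The cells were differentiated in culture from the stromal-vascular fraction of inguinal white fat of C57BL/6 mice, with insulin, isobutylmethylxanthine, dexamethasone, T3 and troglitazone for induction and with insulin, T3 and troglitazone afterwards. All libraries share this background and treatment, and no genotype or control treatment is compared. The libraries were Foxp4 chromatin immunoprecipitation (ChIP), H3K27ac ChIP and input DNA, 1 of each. The input was not used here, and the labels' protocols name an antibody against Foxp4 and none against H3K27ac. With 1 library per list there is no replicate and no test. All intervals cover counting error over peaks only, and peaks at 1 locus are not independent. Read depth cannot be seen in the lists and is unknown.

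Of 7 adipocyte genes looked up as a check of the cell type, Pparg had 2 Foxp4 and 3 H3K27ac peaks, Cebpa had 1 Foxp4 and 4 H3K27ac peaks, and Fabp4 had 1 Foxp4 and 2 H3K27ac peaks. Plin1 had 2 Foxp4 and 3 H3K27ac peaks, and Lipe had 1 Foxp4 and 3 H3K27ac peaks. Adipoq had 1 Foxp4 peak and 0 H3K27ac peaks. Ucp1, which encodes the uncoupling protein of thermogenic fat, had 0 peaks in either list.

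MicroRNAs are short RNAs that pair with messenger RNAs, mostly through their seed, and lower the stability and translation of the target. They are cut by Drosha from a hairpin within a longer primary transcript and then by Dicer from the hairpin itself. The annotated start of a microRNA gene is the upstream end of that hairpin in the direction of transcription. The promoter of the primary transcript can lie far upstream or be that of a host gene. Foxp4 is a forkhead transcription factor, and H3K27ac, acetylated lysine 27 of histone H3, is found at active promoters and enhancers.

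Mature sequences from RefSeq (GRCm38.p6) are shown for microRNAs chosen by a rule. They are not the microRNAs nearest to a peak, since several with nearer peaks fell outside the rule. The rule took genes of the microRNA lists described below with a peak centre within 1000 bp of the start, and genes with overlapping Foxp4 and H3K27ac peaks in that window. It gave 21 genes, and a sequence was read for 18 of them. None was read for Mir124a-3, Mir320 and Mir378a. This is a limit of the set of sequences used here and does not mean that these genes lack a mature sequence. Capitals mark the seed, bases 2 to 8, and 1 arm of each hairpin is given 5′ to 3′. The microRNAs of the lists were these:
mmu-let-7i-5p: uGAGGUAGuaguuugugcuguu
mmu-miR-21a-5p: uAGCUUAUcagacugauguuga
mmu-miR-22-3p: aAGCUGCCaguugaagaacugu
mmu-miR-26b-5p: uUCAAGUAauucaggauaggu
mmu-miR-196a-5p: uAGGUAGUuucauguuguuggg
mmu-miR-199a-3p: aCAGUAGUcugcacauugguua
mmu-miR-199b-3p: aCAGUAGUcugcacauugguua
mmu-miR-214-3p: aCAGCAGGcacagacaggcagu
mmu-miR-295-3p: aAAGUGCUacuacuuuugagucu
The microRNAs with overlapping peaks were these:
mmu-miR-615-3p: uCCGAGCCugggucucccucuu
mmu-miR-3075-3p: aUCCUUGGccuuccuaggugu
mmu-miR-3100-5p: uUGGGAACggggugucuuuggga
mmu-miR-5130: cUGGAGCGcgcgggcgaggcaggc
mmu-miR-6991-5p: uGGAGAACagggacugggccug
mmu-miR-7045-5p: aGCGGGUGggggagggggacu
mmu-miR-7655-5p: cGGCCCACggagcuccuaaaga
mmu-miR-7671-5p: aGGCUCCGcucuggcuagcuucc
Shared seeds are read against the whole annotation, in which 29.2% of microRNA genes had an assigned Foxp4 peak, 22.6% an assigned H3K27ac peak, and 30.6% of hairpins an H3K27ac peak within 10000 bp. The 3 seeds given here were picked, after their values were seen, from 49 carried by 3 or more annotated genes with a sequence read here. Genes whose sequence was not read are left out of the seed counts. The miR-199a-3p and miR-199b-3p sequences are the same, seed CAGUAGU, and come from 3 hairpins. All 3 of those hairpins had an assigned H3K27ac peak and 0 had an assigned Foxp4 peak. The let-7 seed, GAGGUAG, was carried by 11 annotated genes with a sequence. Of these, 4 had an assigned Foxp4 peak, 2 an assigned H3K27ac peak, and 9 a hairpin within 10000 bp of some H3K27ac peak. The seed ACCCGUA was carried by Mir99a, Mir99b and Mir100, with 2 of 3 in the Foxp4 list and 3 of 3 in the H3K27ac list. The assigned Foxp4 peaks lay at −47357 bp for Mir99a and −34433 bp for Mir99b, and the H3K27ac peak of Mir100 at −21039 bp. Within 10000 bp of any Foxp4 peak lay the hairpins of Mir99b and Mir100, beside 22.0% of all hairpins. Those of Mir99a and Mir99b lay within 10000 bp of an H3K27ac peak.

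Foxp4 peaks of microRNA genes lay far from the annotated start, and H3K27ac peaks lay nearer. The median distance from peak centre to start was 33940 bp for Foxp4 peaks (quartiles 9701 and 97396 bp) and 13976 bp for H3K27ac peaks (quartiles 3603 and 42784 bp). For other genes the medians were 26974 bp for Foxp4 and 5206 bp for H3K27ac. Within 1000 bp of the start lay 29 of 589 Foxp4 microRNA peaks (4.92%, interval 3.32 to 6.99), beside 9.46% of all Foxp4 peaks. The same window held 70 of 521 H3K27ac microRNA peaks (13.4%, interval 10.6 to 16.7), beside 36.4% of all H3K27ac peaks. Both microRNA shares were thus below those of the whole lists, and the gap was wider for H3K27ac. Within 10000 bp the shares were 25.5% for Foxp4 and 40.3% for H3K27ac.

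**Figure D1:**
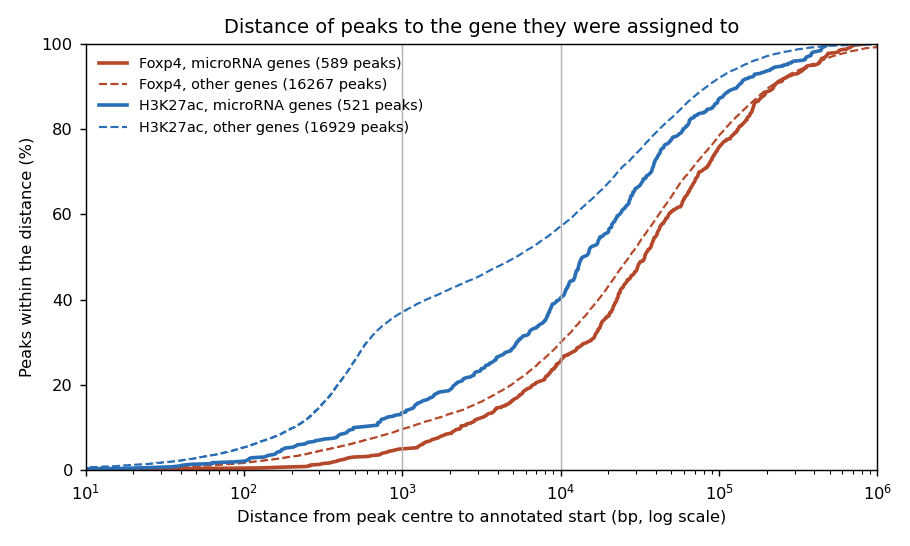
Share of peaks (y axis, %) whose centre lies within a given distance of the annotated start of the assigned gene (x axis, bp, log scale), for microRNA genes (solid) and all other genes (dashed), Foxp4 in red and H3K27ac in blue. Grey lines mark 1000 and 10000 bp. At 1000 bp the microRNA curves stand at 4.92% for Foxp4 and 13.4% for H3K27ac, below the dashed curves at 9.63% and 37.1%.

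MicroRNA peaks were less often in the deposited promoter class, and more often in the transcription termination site class, than peaks of other genes. Foxp4 microRNA peaks were 47.2% intergenic, 43.6% intronic and 2.38% in the promoter class, against 45.0% intergenic, 43.6% intronic and 6.23% in the promoter class for Foxp4 peaks of other genes. H3K27ac microRNA peaks were 33.2% intergenic, 49.1% intronic and 7.49% in the promoter class, against 17.2% in the promoter class for H3K27ac peaks of other genes. The termination site class held 3.9% of Foxp4 microRNA peaks, against 1.3% for other genes. For H3K27ac it held 7.29% of microRNA peaks, against 1.71% for other genes. Whether peaks beside short hairpins fell in this class instead of the promoter class was not tested. A CpG island was named at 1 of 589 Foxp4 microRNA peaks (0.17%), against 0.928% of Foxp4 peaks of other genes, and at 8 of 521 H3K27ac microRNA peaks (1.54%), against 7.63%. Long terminal repeats were named at 8.83% of Foxp4 and 2.88% of H3K27ac microRNA peaks, against 9.58% of Foxp4 and 3.96% of H3K27ac peaks of other genes. Scores, the whole numbers deposited for each peak, had a median of 27 for Foxp4 and 37 for H3K27ac microRNA peaks, against 27 for Foxp4 and 40 for H3K27ac peaks of other genes. They are compared only within a list.

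The microRNA genes named by either list resembled the annotation in where their hairpins sit but not in clustering. Protein-coding genes held the hairpin of 68.2% of Foxp4-assigned and 69.2% of H3K27ac-assigned microRNA genes, beside 68.9% of 1090 annotated hairpins. Hairpins with another hairpin within 10 kb made up 12.8% of Foxp4-assigned and 11.7% of H3K27ac-assigned genes, beside 28.7% of all. Nearest-start assignment gives a peak next to a cluster to a single hairpin of it. The Sfmbt2 intron families, Mir297, Mir466, Mir467 and Mir669, are near-identical copies repeated in an intron of Sfmbt2 and at other sites. They had 81 annotated members, of which 13 were in the Foxp4 list, 5 in the H3K27ac list and 4 in both, and their assignment is uncertain for that reason. Names can also stand for several loci. The 7 Foxp4 peaks named Mir8099-1 are on chromosome 12, and RefSeq places that gene on chromosome 3.

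Few hairpins lay inside a peak. Of 1090 annotated hairpins, 9 touched a Foxp4 peak and 63 touched an H3K27ac peak. The 9 at Foxp4 peaks were those of Mir760, Mir207, Mir7020, Mir3470a, Mir707, Mir3072, Mir6944, Mir6953 and Mir6392, with peak scores of 20 to 36. The Mir7020 hairpin lies inside Aldh4a1, a gene of proline breakdown, and the Mir6392 hairpin inside Pnpla3, which encodes a lipid droplet protein of fat and liver. The nearest Foxp4 peak centres to a start were at 15 bp for Mir6392 (score 30), −41 bp for Mir6944 (34), 126 bp for Mir7020 (34), −169 bp for Mir3072 (21) and −246 bp for Mir615 (27), where a minus sign means upstream. The nearest H3K27ac peak centres were at −4 bp for Mir7075 (71), −17 bp for Mir1956 (44), 24 bp for Mir2861 (67), 35 bp for Mir5103 (30) and −39 bp for Mir7654 (107). The hairpins of Mir7075, Mir1956 and Mir7654 lie inside the protein-coding genes Terf2, Eif4e and Arglu1, in that order. Of these 10 genes, Mir615 had overlapping peaks of both lists. When any peak within 10000 bp of the hairpin was counted, whatever gene it was assigned to, 240 of 1090 hairpins had a Foxp4 peak (22.0%), 334 an H3K27ac peak (30.6%) and 114 both. For 105 of the 240 and 186 of the 334, no peak of that list carried the microRNA's own name.

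Most Foxp4 peaks of microRNA genes lay outside H3K27ac peaks. Overlap by at least 1 bp was found for 33 of 589 Foxp4 microRNA peaks (5.6%, interval 3.89 to 7.78), beside 8.24% of all Foxp4 peaks and 8.34% (7.92 to 8.77) of those of other genes. In the other direction, 32 of 521 H3K27ac microRNA peaks overlapped Foxp4 (6.14%, interval 4.24 to 8.56), beside 7.95% of all H3K27ac peaks. Overlap was most frequent near the start. Within 1000 bp it covered 10 of 29 Foxp4 microRNA peaks (34.5%, interval 17.9 to 54.3), against 42.7% for other genes, and beyond 1000 bp 23 of 560 (4.11%, interval 2.62 to 6.1), against 4.67%. Within each distance class the microRNA interval includes the share of other genes. The 33 peaks belonged to 29 genes, and for 32 of them the H3K27ac partner carried the same gene name. Certain scores recurred in the Foxp4 list (21, 27, 34, 41, 49 and 57) and were held by 71.3% of its microRNA peaks, against 73.2% of those of other genes. Overlap was 3.33% among those microRNA peaks (interval 1.83 to 5.53), against 4.21% for other genes. Among the remaining 169 it was 11.2% (interval 6.91 to 17.0), against 19.6% for other genes, so that at these scores the interval lies below the share of other genes. The 169 include all 25 Foxp4 peaks of Mir101c (scores of 86 to 372, described below), of which 4 overlapped H3K27ac. The 169 were not split by distance to the start, and no test of the difference was made.

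The 10 overlapping pairs within 1000 bp of a start were as follows. Mir615 lies in the Hoxc cluster, within an intron of Hoxc5, and its Foxp4 peak (chr15:103014498-103014831, score 27) was covered by an H3K27ac peak (chr15:103014088-103015606, score 66). The Mir7671 Foxp4 peak (chr11:53762969-53763478) had a score of 56 and lay within an H3K27ac peak of score 50 (chr11:53761316-53764750). The Mir7655 Foxp4 peak (chr2:18056892-18057183) had a score of 63 and the H3K27ac peak beginning at its edge a score of 39. The Foxp4 peaks of Mir615 and Mir7655 lay upstream of the start, at −246 and −809 bp, and that of Mir7671 lay downstream, at 431 bp. Mir320, a conserved microRNA expressed in many tissues, had a Foxp4 peak of score 55 (chr14:70443660-70443965). Its H3K27ac partner, score 57, was assigned to the neighbouring gene Polr3d, which encodes a subunit of RNA polymerase III. The Mir3075 pair, at a hairpin inside Zmiz1, had scores of 27 for Foxp4 and 60 for H3K27ac. The Mir3100 pair, at a hairpin inside the myotonic dystrophy kinase gene Dmpk, had scores of 27 for Foxp4 and 40 for H3K27ac. The Mir5130 pair had scores of 24 for Foxp4 and 21 for H3K27ac. The Mir7045 pair, at a hairpin inside the chromatin remodeller gene Chd4, had scores of 20 for Foxp4 and 49 for H3K27ac. The Mir6991 pair had scores of 20 for Foxp4 and 66 for H3K27ac. Scores of 20 are the lowest deposited in either list.

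The 10th pair belonged to Mir378a, which is processed from an intron of Ppargc1b, the gene of the transcriptional coactivator PGC-1beta. It is known to promote brown fat expansion in mice, which is not a statement about beige cells such as those examined here. A Foxp4 peak of score 33 (chr18:61397094-61397441) lay 633 bp downstream of the start, and an H3K27ac peak of score 51 (chr18:61397170-61398951) covered the hairpin. A second Foxp4 peak, score 21, was also assigned to Mir378a. Further H3K27ac peaks of scores 98 and 39 lay upstream and carried the name Ppargc1b. Mir378a was the single member of the fat cell list with overlapping peaks.

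The highest Foxp4 scores of all microRNA peaks came from repeat sequence. Mir101c, a microRNA near the start of the assembled chromosome 9, had 25 Foxp4 peaks between chr9:3000105 and chr9:3038239, with scores of 86 to 372 (median 167). They were the 25 highest-scoring microRNA peaks of the list, and 24 of them were annotated as the GSAT_MM major satellite. All Foxp4 peaks on chromosomes 1 to 19 included 53 annotated as satellite. Of the 25 peaks, 4 overlapped H3K27ac peaks, whose scores were 44, 31, 21 and 41. Satellite sequence is collapsed in the assembly, so reads of many copies can pile up on few positions, and the part of this in the scores was not tested. Without the Mir101c peaks the overlap was 29 of 564 Foxp4 microRNA peaks (5.14%), a choice made after the data were seen. The next scores were 70 for Mir6546, 66 for Mir8103, 64 for Mir6239, 63 for Mir7655 and 62 for Mir876. Of these 5 peaks, that of Mir7655 overlapped H3K27ac.

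The 5 highest H3K27ac scores of microRNA peaks lay at Mir22hg, Mir1893, Mir99b and Mirlet7i. The leading peak (score 188, chr11:75459008-75461218) lay upstream of Mir22hg, the host transcript of miR-22, and a second Mir22hg peak (score 137, chr11:75461719-75462902) lay downstream of its start. The Mir22 hairpin itself, further along, touched a peak of score 37. Mir1893, whose hairpin lies inside the protein-coding gene Epc1, had a peak of score 174 at −63 bp. Upstream of Mir99b, which is transcribed together with let-7e and miR-125a, a peak of score 148 (chr17:17827033-17829362) was centred at −1991 bp. Mirlet7i had a peak of score 141 that spanned 4144 bp across the hairpin (chr10:122983482-122987625). Each of these 5 scores was above those of at least 98.9% of the list. The nearest Foxp4 peak was 46541 bp from the first Mir22hg peak, 8669 bp from the Mir99b peak and 35868 bp from the Mirlet7i peak. Foxp4 peaks assigned to Mirlet7i, scores 45 and 27, lay 100488 and 38262 bp downstream.

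The Mir22hg promoter window, shown because the gap between its H3K27ac peaks holds the annotated start, covers 250 bases before to 50 bases after it (RefSeq, GRCm38.p6, chr11:75461289-75461588, plus strand).
Mir22hg promoter: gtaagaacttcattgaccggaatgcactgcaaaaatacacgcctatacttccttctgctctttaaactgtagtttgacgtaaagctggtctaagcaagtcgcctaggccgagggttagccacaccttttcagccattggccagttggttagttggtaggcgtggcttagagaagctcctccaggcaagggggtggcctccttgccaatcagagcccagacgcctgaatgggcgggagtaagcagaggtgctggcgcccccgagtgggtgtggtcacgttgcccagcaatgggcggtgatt
It holds 12 CG dinucleotides and is 54.7% G or C, and the median of 32851 RefSeq promoter windows is 7 CG dinucleotides. Neither TGTTTAC nor TGTTTAT, forms of the forkhead core, is in it on either strand. These letters are in 7.97% of all such windows, and their absence says nothing of Foxp4.

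The most H3K27ac peaks were assigned to Mir21a, with 21 peaks of scores 22 to 123 and 0 Foxp4 peaks. The Mir21a hairpin lies inside the protein-coding gene Vmp1, and whether the peaks belong to Mir21a or to Vmp1 was not tested. miR-21 is abundant in fibroblasts and fat cells. A peak of score 91 spanned 4848 bp over its hairpin (chr11:86581988-86586835), and the nearest Foxp4 peak of any gene was 52572 bp from the hairpin. Mir6995 had 16 H3K27ac peaks, Mir3089, Mir3075 and Mir21c had 12 each, and Mir29b-1 and Mir3095 had 11 each. Their overlap with Foxp4 was 2 peaks for Mir3089 and 1 each for Mir6995, Mir3075 and Mir21c. After Mir101c the most Foxp4 peaks were assigned to Mir6344 with 11, Mir1904 with 8, and Mir21c, Mir6350 and Mir8099-1 with 7 each. The Mir6344 peaks had scores of 21 to 34, lay up to 254347 bp from the start, and 0 of 11 overlapped H3K27ac. A single peak was assigned to 192 of 323 genes in the Foxp4 list and to 150 of 250 in the H3K27ac list.

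**Figure D2:**
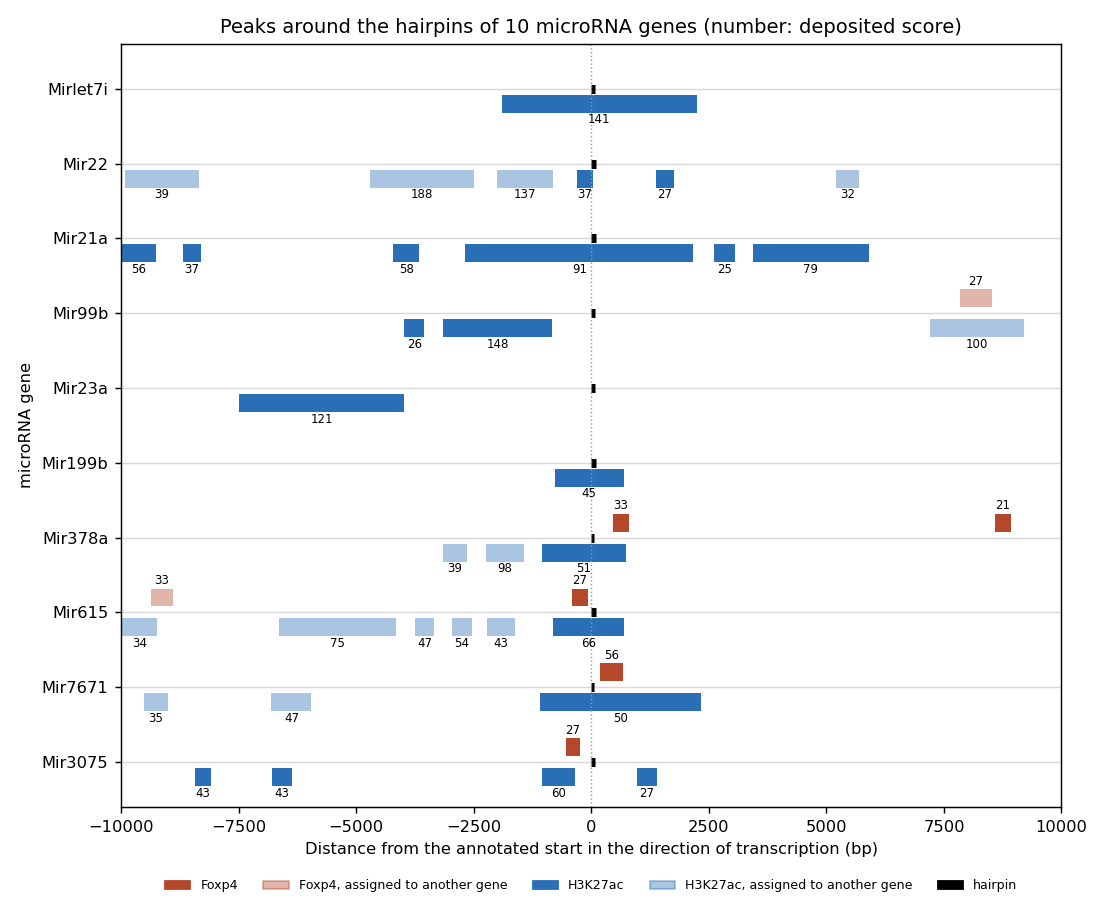
Peaks of both lists around the hairpins of 10 microRNA genes, drawn to scale as distance in bp from the annotated start in the direction of transcription (x axis, 10000 bp to each side). Foxp4 peaks are red above each line and H3K27ac peaks blue below it, pale where the peak was assigned to another gene, with the deposited score beside each and the hairpin in black. Foxp4 peaks overlap H3K27ac near the hairpin at Mir378a, Mir615, Mir7671 and Mir3075, and no Foxp4 peak is drawn at Mirlet7i, Mir22, Mir21a, Mir23a or Mir199b.

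Lists of microRNAs known from fat and from other cell types were read against the annotation, in which 29.2% of 1103 microRNA genes had an assigned Foxp4 peak, 22.6% an assigned H3K27ac peak and 12.6% both. Of 20 fat cell and thermogenic microRNAs, 8 had Foxp4 peaks, 8 had H3K27ac peaks and 4 had both, which were Mir30c-2, Mir30d, Mir365-2 and Mir378a. With any peak within 10000 bp of the hairpin counted, 4 of the 20 had a Foxp4 peak and 6 an H3K27ac peak, beside 22.0% of all hairpins for Foxp4 and 30.6% for H3K27ac. The miR-193b and miR-365 genes are known to favour brown fat differentiation in mouse cells. Mir193b had 1 H3K27ac peak of score 28 at −13003 bp and 0 Foxp4 peaks. Mir365-2 had 4 H3K27ac peaks, the nearest at −6319 bp, and 1 Foxp4 peak at 97980 bp. Mir196a-2, whose product raises brown adipocyte formation in white fat of mice, lies in the Hoxc cluster and had 2 H3K27ac peaks, the nearest at −701 bp, with 0 assigned Foxp4 peaks. A Foxp4 peak of score 33 that lay 4626 bp from its hairpin was assigned to Hoxc9 and overlapped H3K27ac. Mir26b had H3K27ac peaks of scores 33 and 68, the peak of score 33 centred at −387 bp, and 0 Foxp4 peaks.

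Of 19 microRNAs known to restrain brown or beige fat, 4 had Foxp4 peaks, 6 had H3K27ac peaks and 2 had both, Mir34a and Mir125b-1. The cluster of Mir199a-2 and Mir214 lies in an antisense transcript within Dnm3, and each hairpin touched an H3K27ac peak, of scores 35 and 30. Mir199a-1 touched an H3K27ac peak of score 37. The nearest Foxp4 peak of any gene was 180169 bp from Mir199a-2 and 13418 bp from Mir199a-1. Mir133a-1, a muscle microRNA that targets Prdm16 and restrains brown fat fate, had a Foxp4 peak of score 29 at −1094 bp and 0 H3K27ac peaks. For Mir34a the nearest peaks were at −17616 bp for Foxp4 and −20051 bp for H3K27ac, without overlap. Within 10000 bp of any peak lay 1 of the 19 hairpins for Foxp4 and 10 for H3K27ac. The hairpins of Mir25, Mir93 and Mir106b were counted through the same peak, and Mir199a-1, Mir199a-2, Mir214 and Mir22 are also in the fibroblast list described below, so the lists are not independent.

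Of 14 annotated adipogenesis and insulin response microRNAs, 6 had Foxp4 peaks, 5 had H3K27ac peaks and 1 had both. Within 10000 bp of any peak lay 4 of the 14 hairpins for Foxp4 and 5 for H3K27ac. The gene with both was Mir204, in an intron of Trpm3, with 4 Foxp4 peaks, the top score 49, and 1 H3K27ac peak of score 46 that overlapped a Foxp4 peak of score 45 some 166031 bp from the start. Mir103-1 and Mir107, which lower insulin sensitivity in mice, had 1 Foxp4 peak each, of score 27, and 0 H3K27ac peaks. Mir130a, which targets Pparg, had an H3K27ac peak of score 37 at −2410 bp, and Mir210, the hypoxia-responsive microRNA, 1 of score 29 at −1058 bp. Neither Mir130a nor Mir210 had a Foxp4 peak.

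The let-7 family showed how much of this depends on assignment. Of 10 annotated let-7 genes, 4 had assigned Foxp4 peaks, 3 assigned H3K27ac peaks and 3 both, Mirlet7a-1, Mirlet7a-2 and Mirlet7i. All 10 hairpins, however, lay within 10000 bp of an H3K27ac peak, and 2 lay within 10000 bp of a Foxp4 peak. The H3K27ac peak nearest to Mirlet7b and Mirlet7c-2 carried the name Lncppara, that nearest to Mirlet7g the name Wdr82, that nearest to Mirlet7c-1 the name Mir99a and that nearest to Mirlet7e the name Mir99b. A single peak of score 73 was the nearest to Mirlet7a-1, Mirlet7d and Mirlet7f-1, so the 10 hairpins are not 10 separate observations.

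Of 23 fibroblast and mesenchymal microRNAs, several of which fat cells also express, 4 had Foxp4 peaks, 13 had H3K27ac peaks and 3 had both. With any peak within 10000 bp counted, 5 hairpins had a Foxp4 peak and 17 an H3K27ac peak. These are not separate observations. Mir23a and Mir24-2, Mir23b and Mir24-1, and Mir29b-2 and Mir29c each shared their nearest H3K27ac peak. Mir29a and Mir29b-1 shared their nearest Foxp4 peak. Besides Mir21a, Mir22, Mir99b, Mir214 and the Mir199 genes, the H3K27ac list held Mir23a, whose peak of score 121 (chr8:84201019-84204540) lay upstream of the cluster with Mir27a and Mir24-2. Mir29a and Mir29b-1, which repress collagen genes, form 1 cluster. Mir29a had a Foxp4 peak of score 25 at 1319 bp, and Mir29b-1 had 11 H3K27ac peaks, the nearest 15980 bp upstream, and 1 Foxp4 peak. Mir99a had 7 H3K27ac peaks, the nearest at −1192 bp, and a Foxp4 peak at −47357 bp.

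In each of the lists of other cell types, 0 or 1 gene had assigned H3K27ac peaks. Some of these lists are short, and 1 of 4 in the liver list is not below the 22.6% of all annotated microRNA genes. With any H3K27ac peak within 10000 bp counted, the liver list (2 of 4) and the embryonic stem cell list (9 of 14) stood above the 30.6% of all hairpins. The 2 liver hairpins, Mir194-2 and Mir192, were counted through a single peak of score 21. The 9 embryonic stem cell hairpins were also counted through a single peak, so neither count is of separate observations. Of 15 annotated neuronal microRNAs, 7 had Foxp4 peaks and 0 had assigned H3K27ac peaks. Within 10000 bp of any peak lay 4 of the 15 for Foxp4 and 3 for H3K27ac. The Mir219a-1 hairpin touched an H3K27ac peak of score 48 named for Ring1, and Mir212 and Mir132 lay 2826 and 3120 bp from a peak named for Hic1. The neuronal Foxp4 peaks nearest to a start were those of Mir124a-3 at −729 bp (score 21), Mir138-2 at 2120 bp (21) and Mir9-1 at 5492 bp (39). Of 9 muscle microRNAs, 2 had Foxp4 and 0 had H3K27ac peaks, and 2 hairpins lay within 10000 bp of a Foxp4 peak and 0 of an H3K27ac peak. Of 11 blood cell microRNAs, 5 had Foxp4 and 1 had H3K27ac peaks, with 2 hairpins within 10000 bp for each list. Of 13 endothelial and epithelial microRNAs, 3 had Foxp4 and 1 had H3K27ac peaks, with 1 hairpin within 10000 bp of Foxp4 and 2 of H3K27ac. Of 4 annotated liver microRNAs, 2 had Foxp4 and 1 had H3K27ac peaks, with 3 hairpins within 10000 bp of Foxp4 and 2 of H3K27ac. Some hairpins in these lists shared their nearest peak and are not separate observations. For Foxp4 these were Mir133a-1 with Mir1a-2, Mir144 with Mir451a, and Mir194-2 with Mir192. For H3K27ac, Mir141 and Mir200c shared a peak named for Phb2, besides the liver hairpins named above. Of 14 embryonic stem cell microRNAs, Mir295 alone had assigned peaks, 1 of each list. It stands for a cluster of 9 hairpins within 10000 bp of both peaks. The Mir17 and related clusters had 2 of 10 genes with Foxp4 peaks and 0 with H3K27ac peaks, with 7 members within 10000 bp of a Foxp4 peak and 3 of an H3K27ac peak. A single Foxp4 peak of score 41, named for Mir92-1, was the nearest to all 7, so they are not separate observations. The H3K27ac peak near Mir25, Mir93 and Mir106b (score 23) carried the name of their host gene, Mcm7. The lists were compared with the annotation as counts, and no list was tested.

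**Figure D3:**
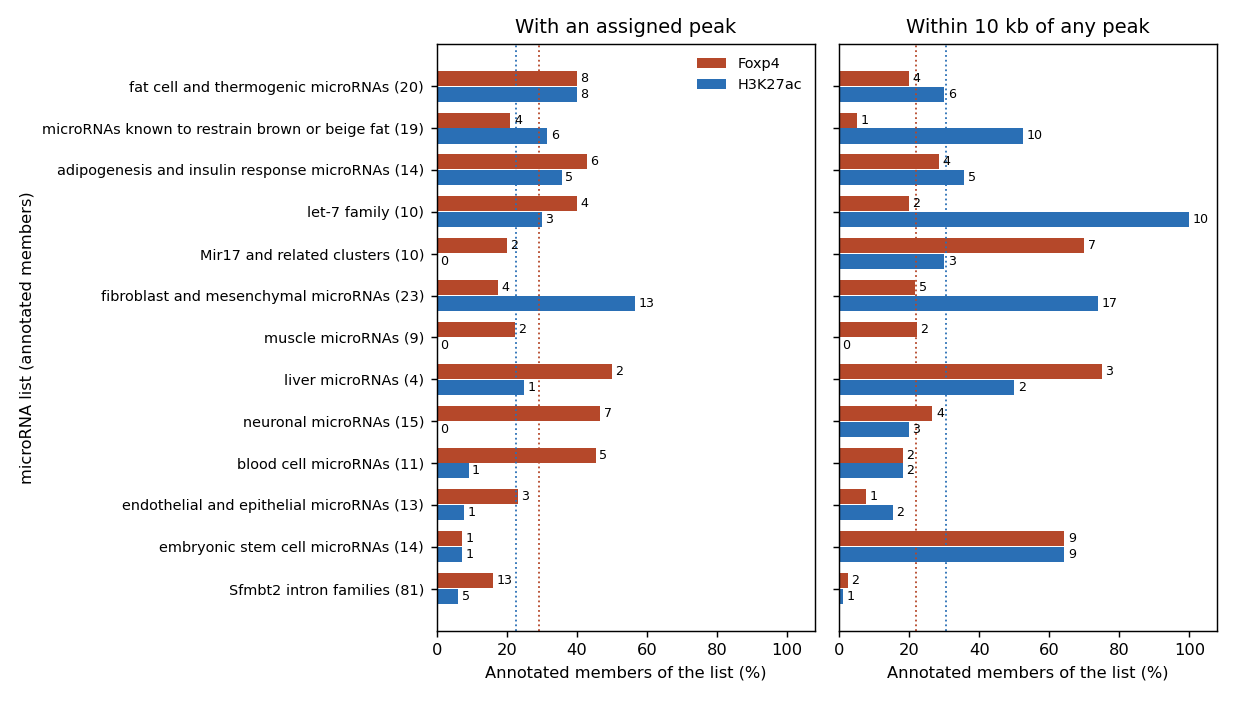
Share of the annotated members of 13 microRNA lists (x axis, %) with an assigned peak (left) and with the hairpin within 10 kb of any peak (right), Foxp4 in red and H3K27ac in blue, with counts at the bar ends. Dotted lines mark the shares over all annotated genes, 29.2% for Foxp4 and 22.6% for H3K27ac on the left, and 22.0% and 30.6% on the right. For H3K27ac, the let-7 family has 3 of 10 on the left and 10 of 10 on the right, neuronal microRNAs 0 of 15 and 3 of 15, and muscle microRNAs 0 of 9 on both sides.

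The 140 microRNA genes in both lists made up 43.3% of the microRNA genes with Foxp4 peaks and 56.0% of those with H3K27ac peaks. They held 307 Foxp4 and 336 H3K27ac peaks. The same shares over all genes were not computed, so these are not read as a trait of microRNA genes. In most of the 140 genes the peaks of the lists lay apart, as did most peaks of both whole lists. Over all peaks, 8.24% of Foxp4 and 7.95% of H3K27ac peaks overlapped the other list. Overlapping peaks were present at 28 of the 140 genes, peaks of both lists within 1000 bp of the start at 9, and within 10000 bp at 34. Of the 139 genes matched to RefSeq, the H3K27ac peak was the nearer to the start in 82 and the Foxp4 peak in 57. H3K27ac peaks lay nearer for other genes too, with medians over peaks of 5206 bp for H3K27ac and 26974 bp for Foxp4. The 139 include names with several copies, such as Mir669c, whose deposited distance can belong to another locus. Overlap far from the start was found at Mir21c, where the Foxp4 peak lay at 219711 bp and the H3K27ac peak at 219631 bp, and at Mir218-2, Mir204, Mir467h and Mir99ahg. Nearer pairs lay at Mir3089, where a Foxp4 peak of score 41 was covered by an H3K27ac peak of score 106 centred at −2406 bp, and at Mir1191b, inside Nfic. Mir5114, inside the stearoyl-CoA desaturase gene Scd2, had a Foxp4 peak of score 41 at 3725 bp that overlapped an H3K27ac peak of score 32. Mir8100, inside Adam19, had 9 H3K27ac peaks and 2 Foxp4 peaks, and 1 pair overlapped at −10337 bp.

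**Figure D4:**
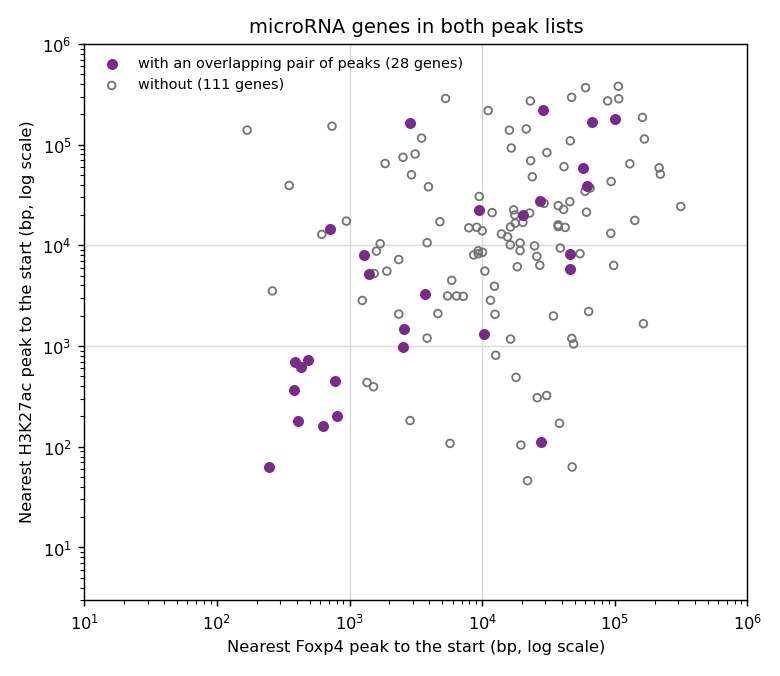
Distance from the annotated start to the nearest Foxp4 peak centre (x axis, bp, log scale) and to the nearest H3K27ac peak centre (y axis, bp, log scale) for the 139 microRNA genes in both lists that matched RefSeq. The 28 genes with an overlapping pair are filled and the other 111 are open. The 9 genes below 1000 bp on both axes are all filled.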

How the data were processed

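Per the file headers, the authors ran HOMER annotatePeaks.pl (mm10) on the narrowPeak calls of each ChIP library. The submitters' processing notes name MACS2, Bowtie2, SAMtools, deepTools 3.3.0 and Picard but give no settings. Deposited peak scores are whole numbers, 20 or higher, and their scale is not given in the sources used here. The deposited distance, gene name and class were used as given, with coordinates read as 1-based.

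Members were taken from the deposited gene names on chromosomes 1 to 19. MicroRNA genes and hairpins came from RefSeq on GRCm38.p6 (mm10), which holds 1103 such genes, 13 of them host transcripts. Of the 433 genes named, 432 matched. Deposited distances matched RefSeq hairpin starts within 2 bp for 445 of 452 Foxp4 and 452 of 453 H3K27ac peaks checked. Overlap meant at least 1 shared bp. A Foxp4 score was called recurrent where 100 or more peaks shared it and its count exceeded 3 times that of each adjacent score. Shares have exact 95% Clopper-Pearson intervals. Scores were compared only within a list.

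Genes named in the text were those in both lists, those with overlapping peaks, the 5 highest-scoring, nearest and most peak-rich of each list, and members of the microRNA lists. Of these, the text gives values for a subset, and genes with a hairpin inside a Foxp4 peak were added after their values were seen. The members and lists were chosen with earlier results of these data known. Routines were tested on simulated data. Alternatives changed the overlap rule, the window, the score filter and the genes kept. Scripts ran in Python 3.11.15 with scipy 1.17.1 for intervals, pandas 2.3.3 for tables, numpy 2.4.6 and matplotlib 3.10.9.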

Additional observations from a re-analysis of the deposited data

How the results depend on the processing

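No paired analysis was possible because each list comes from 1 library. Overlap of Foxp4 microRNA peaks with H3K27ac, 5.6% by 1 shared bp, came to 9.34% with gaps of up to 1000 bp allowed and to 11.2% without recurrent Foxp4 scores. Overlap of H3K27ac microRNA peaks with Foxp4, 6.14%, came to 2.88% with at least 50% of the peak covered, 3.07% with its centre inside, 10.2% with gaps of up to 1000 bp and 3.45% without recurrent Foxp4 scores. The share of Foxp4 microRNA peaks within 1000 bp, 4.92%, came to 8.28% without recurrent scores, 11.9% in a window of 3000 bp and 25.5% in 10000 bp. The share of H3K27ac microRNA peaks, 13.4%, came to 19.1% in the higher-scoring 50% of each list, 23.0% in 3000 bp and 40.3% in 10000 bp. Genes in both lists, 140, came to 69 without recurrent scores and 55 in the higher-scoring 50%. The causes were not tested beyond these constructions. Other alternatives, including leaving out host transcripts, Sfmbt2 families or Mir101c, kept shares within the interval of the reported value and the number of genes in both lists between 114 and 139. Read depth cannot be seen in peak lists, which limits any comparison of peak numbers between Foxp4 and H3K27ac.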
